A study of Mus musculus with 10 samples.

Results

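The genes described here encode the constitutive proteasome and its activators. They are the protein-coding genes of the count table whose symbol is Psma, Psmb, Psmc, Psmd or Psme followed by a number, apart from Psmb8, Psmb9 and Psmb10, which encode the catalytic subunits of the immunoproteasome. The names alone chose 40 of the 55487 genes in the table. They comprise 16 genes of the core (8 of the alpha rings and 8 of the beta rings), 6 ATPases, 14 genes of the lid and base, the 2 genes of PA28 (Psme1 and Psme2) and 2 genes of other activators (Psme3 and Psme4). All 40 passed the filter on low counts.

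RNA was sequenced from dissected mouse RPE/choroid complex, that is the retinal pigment epithelium (RPE) and the choroid, the vessel layer that supplies it. All 10 samples came from iDTR mice on C57BL/6, which carry the toxin receptor gene HBEGF in the Gt(ROSA)26Sor locus and make the receptor in cells with Cre activity. All of these mice received diphtheria toxin by intraperitoneal injection. The 5 ADQ samples had the genotype iDTR Adiponectin-Cre, with Cre driven by the adiponectin gene of fat cells, and the 5 control samples had the genotype iDTR without Cre. Mice with Cre were injected every day over 7 weeks according to the series description, which states neither a separate time for control nor an age. The Cre is therefore not specific to the eye. Whether every sample is a different animal is not stated, and p-values thus describe only sample-to-sample spread, part of which may be technical.

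The proteasome is the barrel-shaped protease that degrades proteins tagged with ubiquitin. Its core has outer rings of alpha subunits and inner rings of beta subunits, of which beta1 (Psmb6), beta2 (Psmb7) and beta5 (Psmb5) cut peptide bonds. A regulatory particle caps the core: its base holds the ATPases that unfold substrates, and its lid removes ubiquitin. PA28, a ring of the Psme1 and Psme2 products, is an alternative cap that interferon gamma induces together with the immunoproteasome subunits Psmb8, Psmb9 and Psmb10, which replace beta5, beta1 and beta2 in newly built cores. The RPE digests photoreceptor outer segments every day in lysosomes and depends on the proteasome for its cytosolic and nuclear proteins.

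Libraries held 43.6 M to 64.1 M counts (M, mega). RPE markers summed to 34235 to 49435 CPM (counts per M counts, TMM-scaled) in control and 29383 to 44058 in ADQ, with none of the 8 at 0, and markers of choroidal endothelium to 833 to 1008 and 699 to 985 CPM, so the labelled tissue was present in every library. Control 5 stood apart from the other controls: its summed adipocyte markers were 6.42 CPM, with Adipoq at 0 counts, against 65.6 to 154 CPM in the other controls and 7.34 to 24.7 CPM in ADQ. Its T and NK cell markers summed to 87.9 CPM, against 24.8 to 39.1 CPM in the other controls and 84.8 to 127 CPM in ADQ. It also had the highest summed interferon-induced markers among controls, 3109 CPM against 1871 to 2472 CPM, below the 3427 to 4647 CPM of ADQ. On the first 2 of these lists the library labelled control 5 was closer to ADQ than to the other controls, and whether its label is right was not tested. The main values are therefore also given without it.

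To show which members carry sequence elements bound by interferon-activated or stress-activated factors, promoter windows of RefSeq genes (GRCm38.p6, 250 bases before to 50 after the start) were searched on both strands for 3 motifs. The core of the interferon-stimulated response element was taken as GAAA, any 2 bases and GAAA again. TTCNNNGAA is the gamma-activated site, and TGACNNNGC is the core of the antioxidant response element, the site class used by Nfe2l1 and Nfe2l2. Of the 40 members, 33 had a window, and Psma8, Psmb1, Psmb2, Psmb7, Psmc3, Psmd3 and Psmd7 had none. The interferon-stimulated core was found in 4 members, and the stretches are shown because Psme1 is among them. The capitals mark the match, which may lie on either strand.
Psme1, chr14:55578493-55578522 (+): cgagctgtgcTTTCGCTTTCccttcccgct
Psmb3, chr11:97703261-97703290 (+): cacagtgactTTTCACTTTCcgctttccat
Psmd4, chr3:95042675-95042704 (-): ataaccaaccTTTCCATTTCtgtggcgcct
Psmd9, chr5:123228021-123228050 (+): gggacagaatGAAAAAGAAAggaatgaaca

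In Psme1 the match starts 10 bases after the RefSeq start, in the transcribed part. These 4 matches fall in 11.1% of the 36 windows of members, against 3.44% of all 32851 windows. The antioxidant core was found in 6 members, Psmb5, Psmb6, Psmc6, Psmd12, Psmd9 and Psme4, which is 16.7% of member windows against 12.4% of all windows. Those of the catalytic subunits Psmb5 and Psmb6 are shown because both genes enter the ratios described later.
Psmb5, chr14:54618023-54618052 (-): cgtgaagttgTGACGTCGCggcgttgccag
Psmb6, chr11:70525338-70525367 (+): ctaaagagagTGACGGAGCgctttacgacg

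The gamma-activated letters were found in 1 member, Psmd2, or 2.78% of member windows against 8.3% of all. Of the inducible genes Psmb8, Psmb9 and Psmb10, only Psmb8 had a match to any of the 3 motifs. Whether Psmb9 and Psmb10 had a window was not recorded. Psmb8, the inducible counterpart of Psmb5, carried the gamma-activated letters and is shown.
Psmb8, chr17:34198088-34198117 (+): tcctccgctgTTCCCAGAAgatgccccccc

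A match describes the letters in the window, and binding there was not measured. Psme2 had a window without any of the 3 motifs.

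Transcripts of the core differed widely in level. Per kilobase of the principal transcript in control, Psmb6, the caspase-like beta1 subunit, was highest at 372 ± 54.1 CPM per kb (SD, n = 5), followed by Psma7 at 301 ± 36.8 and Psmb3 at 244 ± 38.5, and each of these steps exceeded the larger SD of its pair. Psma2 was lowest among the widely expressed core genes, at 53.7 ± 5.66 CPM per kb, and Psma5 and Psmb7 stood next at 66.5 ± 4.23 and 70.7 ± 8.83. Psma2 shares 8943 bases with AW209491 (28.7 CPM) on the same strand, and how reads in shared bases were assigned is not given. Psma5 and Psmb7 differed by less than their spread. Psma8, the alpha subunit of the testis, measured 1.17 ± 0.431 CPM per kb, with 53 to 151 counts per library over both groups. Psmb11, the beta5 form of thymic epithelium, measured 0.0717 ± 0.061 CPM per kb, with 3 to 37 counts per library. Merged exon length in place of the principal transcript kept Psmb6 highest, at 159 CPM per kb, and put Psmb7 lowest, at 24 CPM per kb, with Psma7 at 89.7 and Psmb3 at 81.3 below other core genes such as Psma6 at 146, so the order below Psmb6 depends on the length used.

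Among the ATPases in control, Psmc3 was highest at 196 ± 12.3 CPM per kb, then Psmc5 at 148 ± 6.81, and Psmc6 was lowest at 21.7 ± 1.71 (SD, n = 5). With merged exons Psmc5 came first instead, at 140 CPM per kb. In the lid and base, Psmd8, a lid subunit, led at 182 ± 20.2 CPM per kb, and 2 base assembly chaperones were lowest, Psmd5 at 14.5 ± 1.04 and Psmd9 at 21.7 ± 2.68. PA28 transcripts were matched in control, with Psme1 at 140 ± 19.6 and Psme2 at 139 ± 16.1 CPM per kb. Psme3, the nuclear PA28 gamma, measured 35.3 ± 4.56 CPM per kb, and Psme4, the large activator PA200, measured 4.14 ± 0.361.

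**Figure D1:**
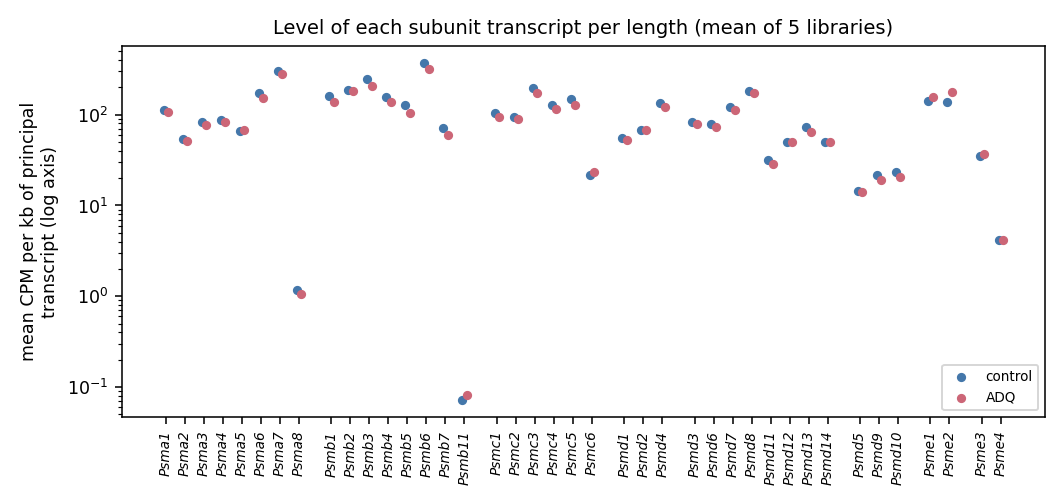
Mean level of each member per kilobase of its principal transcript (CPM per kb, log axis) in the 5 control and 5 ADQ libraries. Psmb6 is highest at 372 CPM per kb in control, the tissue-restricted Psma8 and Psmb11 lie far below the other core genes, and the points of both groups nearly coincide for most members.

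The main comparison asked whether these transcripts differed between ADQ and control. No member was called: at an edgeR quasi-likelihood adjusted p under 0.05, 0 of 40 members were higher and 0 were lower, while 0.74% of the 20684 genes tested were higher and 0.087% lower, 0.827% in all. DESeq2 and voom with quality weights likewise called 0 members. At an unadjusted p under 0.05 there were 3 members, Psme2, Psmb7 and Psmc5, or 3 of 40 against 13.8% of all genes. Fold changes were small throughout, from -0.31 (Psmb5) to 0.34 (Psme2) on the log2 scale, ADQ over control. Of the 40, 32 lay below 0, which is 80% against 48.2% of all genes tested and 56.1% of the 7387 genes that averaged 20 CPM or more. The median was -0.11 over the members, 0.01 over all genes and -0.03 over the genes of at least 20 CPM.

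By subcomplex, the medians were -0.12 for the core, -0.15 for the ATPases, -0.11 for the lid and base, 0.24 for PA28 and 0.02 for the other activators. Of the 36 genes of core, ATPases, lid and base, 31 lay below 0. With libraries scaled by their total alone this count was 23 of 36, as the median of all genes then moved to 0.10, and the medians of core, ATPases and lid and base were -0.03, -0.07 and -0.03. In bulk tissue, fewer cells of a type and less RNA per cell cannot be told apart. Few members had groups without overlap: 0 of 40 had every ADQ library above every control, against 2.09% of all genes, and 1 of 40 (Psmc5) had every ADQ library below, against 1.07%. In the authors' deposited table, which lists 39 of the members, 0 were called, beside 3.79% of its 15860 genes called higher and 1.63% lower. The smallest adjusted p of a member in the authors' deposited table was 0.0605, for Psmc5. By unadjusted p under 0.05, the authors' deposited table held 13 of 39 members lower, against 12.9% of its genes, and 2 higher, Psme2 and Psmc6, against 14.6%.

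**Figure D2:**
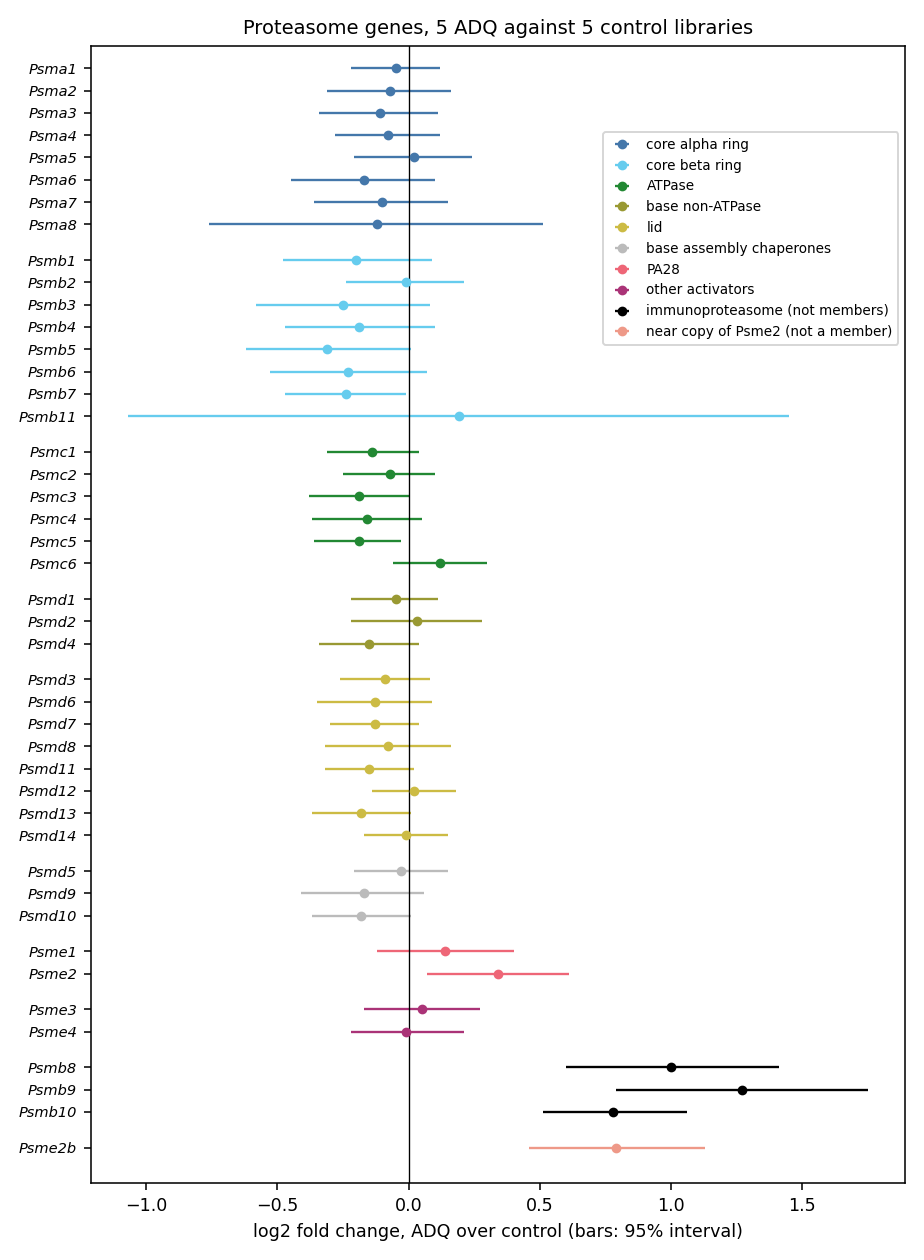
Log2 fold change of each proteasome gene, ADQ over control, with its 95% interval from the edgeR fit of 5 against 5 libraries, by subcomplex. Most constitutive genes lie slightly left of 0, Psme1 and Psme2 lie right of it at 0.14 and 0.34, and the 3 immunoproteasome genes, shown for comparison, lie between 0.78 and 1.27.

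PA28 was the only subcomplex whose members all had positive fold changes, and neither member was called. Psme1 (PA28 alpha, chr14:55578123-55581529, + strand) measured 172, 141, 130, 153 and 182 CPM in control 1 to 5 and 210, 163, 140, 163 and 183 CPM in ADQ 1 to 5. Only ADQ 1 and ADQ 5 exceeded the highest control, and the groups overlapped. Its mean was 156 ± 21.8 CPM (SD, n = 5) in control against 172 ± 26.2 CPM in ADQ, a log2 fold change of 0.14 with SE 0.12 and adjusted p 0.603 in edgeR.

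Psme2 (PA28 beta, chr14:55587441-55591113, - strand), which lies beside Psme1, measured 148, 116, 121, 136 and 150 CPM in control and 218, 161, 131, 161 and 179 CPM in ADQ. The 4 ADQ libraries other than ADQ 3 exceeded every control, and ADQ 3 lay inside the control range. Means were 134 ± 15.5 and 170 ± 31.9 CPM (SD, n = 5 each), with a log2 fold change of 0.34, SE 0.13, a 95% interval of 0.07 to 0.61, unadjusted p 0.017 and adjusted p 0.259 in edgeR. Without control 5 the values were 0.21 (adjusted p 0.513) for Psme1 and 0.39 (adjusted p 0.251) for Psme2 in the same test. Control 5 was the highest control for both genes, so leaving it out was bound to raise these values.

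Counting of Psme2 is uncertain because of Psme2b, an intronless near copy on chromosome 11 (chr11:48945354-48946190), which was looked at after its values were seen. Psme2b shares all of its 837 bases with Gm12185 (3.08 CPM) on the same strand, and 41 bases with 9930111J21Rik1 (4.67 CPM). How reads in shared bases were assigned is not given, so counts of Psme2b, alone or summed with Psme2, are uncertain too. Psme2b was higher in ADQ, from 20 ± 4.15 to 34.5 ± 5.78 CPM (SD, n = 5 each), a log2 fold change of 0.79 with SE 0.16 and adjusted p 0.0309 in edgeR. Its control libraries ran from 14.1 to 24.4 CPM and its ADQ libraries from 25.2 to 39.2 CPM, without overlap. The call was lost without any 1 of control 2, control 4, ADQ 1, ADQ 2, ADQ 3 or ADQ 4, with adjusted p up to 0.104, and also with upper-quartile scaling (0.0519), the rod marker covariate (0.0636) or the macrophage marker covariate (0.111). Psme2b took 12.9 ± 1.8% of the summed counts of both genes in control and 17.2 ± 3.84% in ADQ. With both counted as 1 gene, the log2 fold change of Psme2 was 0.41 and its adjusted p 0.138.

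Relative to the core in the same library, both PA28 genes separated the groups, a description chosen after the values were seen and not tested. Taking log2 CPM minus the mean of the 14 widely expressed core genes, Psme1 ran from -0.13 to 0.10 in control and from 0.18 to 0.28 in ADQ. Psme2 ran from -0.41 to -0.19 in control and from 0.15 to 0.27 in ADQ, so for both genes all 5 ADQ libraries lay above all 5 controls. The mean difference was 0.29 for Psme1 and 0.48 for Psme2. These differences include that of the core mean itself, which was -0.15 (ADQ minus control). On this scale 2.42% of all genes had every ADQ library above every control and 0.614% had every one below. The 2 PA28 genes were above, as was 1 of 16 core genes, Psmb2, and 0 of the ATPases or of the lid and base. Outside the members, Psmb8, Psmb9 and Psmb10 were above too, with larger differences of 1.19, 1.49 and 0.94, as was Psme2b with 0.95. Psme3 and Psme4 overlapped, with differences of 0.20 and 0.14.

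Neither of the other activators was called. Psme3 measured 87.7, 107, 107, 87.9 and 80.4 CPM in control and 84.9, 98.9, 94.3, 96.2 and 111 CPM in ADQ, with a log2 fold change of 0.05, SE 0.10 and adjusted p 0.854 in edgeR. Psme4 measured 23.5 to 29.6 CPM in control and 22.8 to 30.9 CPM in ADQ, with a log2 fold change of -0.01, SE 0.10 and adjusted p 0.981. The 95% intervals, -0.17 to 0.27 for Psme3 and -0.22 to 0.21 for Psme4, bound the differences that these libraries leave room for.

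**Figure D3:**
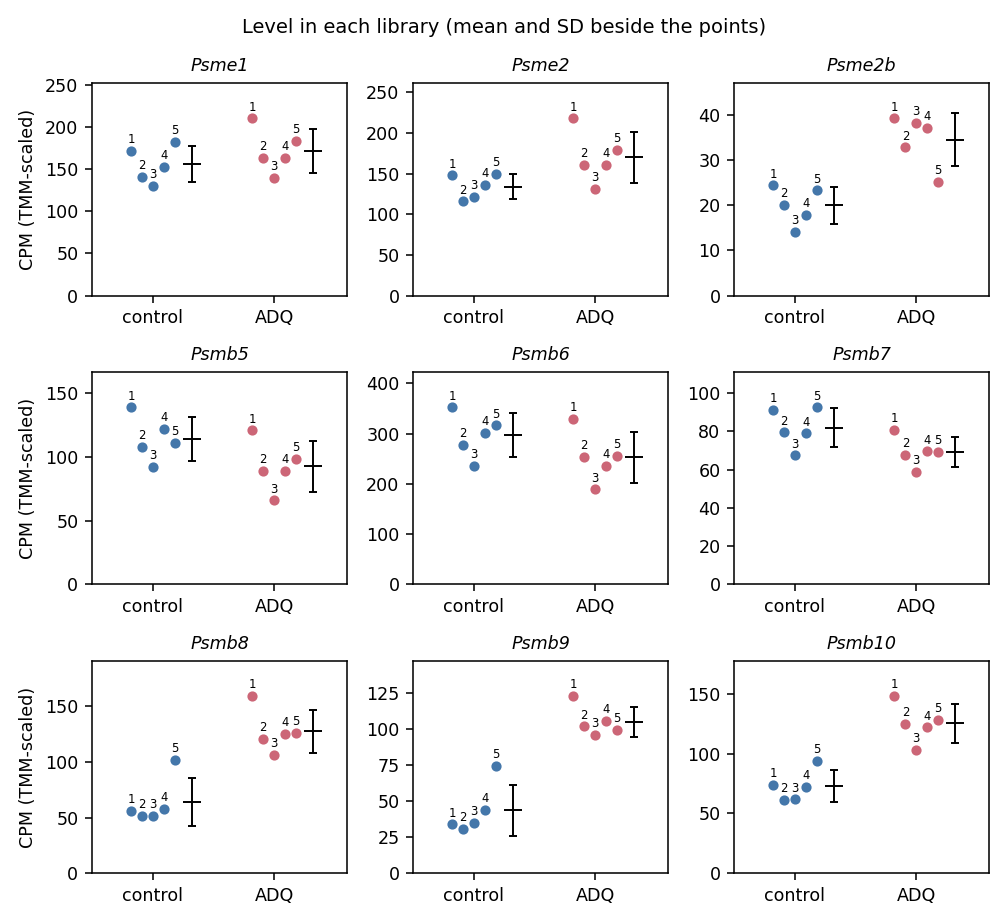
CPM in each of the 10 libraries, numbered as in the labels, for the PA28 genes and Psme2b (top), the constitutive catalytic subunits (middle) and their inducible counterparts (bottom), with mean and SD. The constitutive subunits overlap between groups, whereas the ADQ libraries of Psmb8, Psmb9 and Psmb10 all lie above the controls, of which control 5 is highest.

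In the core, 14 of 16 fold changes lay below 0 and none was called. The beta rings had a median of -0.21 and the alpha rings one of -0.09. All 3 catalytic subunits were among the lowest. Psmb5, the chymotrypsin-like beta5 subunit (chr14:54614119-54618022), measured 139, 108, 92.3, 122 and 111 CPM in control and 121, 89.2, 66, 89.1 and 98.4 CPM in ADQ. Only ADQ 2, ADQ 3 and ADQ 4 lay below the lowest control. The log2 fold change was -0.31 with SE 0.15, unadjusted p 0.056 and adjusted p 0.373 in edgeR.

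Psmb7, the trypsin-like beta2 subunit, measured 91.1, 79.5, 67.5, 79 and 92.6 CPM in control and 81, 67.9, 58.9, 69.6 and 69.5 CPM in ADQ. Its groups overlapped, because control 3 lay below 4 of the 5 ADQ libraries. The log2 fold change was -0.24 with SE 0.11, unadjusted p 0.0386 and adjusted p 0.334. Psmb7 shares 6571 bases with Nek6, a kinase gene on the opposite strand at 131 CPM, and whether counting used strand is not given in the sources used here. Psmb6 averaged 297 ± 43.2 CPM (SD, n = 5) in control against 253 ± 50.4 CPM in ADQ, a log2 fold change of -0.23 with adjusted p 0.464 in edgeR. The other beta subunits Psmb1 and Psmb3, structural parts of the ring, had log2 fold changes of -0.20 and -0.25, and Psmb2 one of -0.01.

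The alpha subunits, which form the gate of the core, varied less. Their log2 fold changes ran from -0.17 (Psma6) to 0.02 (Psma5), with adjusted p from 0.559 to 0.959. Psma8 and Psmb11 had too few counts to show a change of this size: the 95% interval of Psmb11 ran from -1.07 to 1.45 on the log2 scale. Without these genes the core median was -0.14.

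Of the 6 ATPases, 5 had log2 fold changes below 0. Psmc5 (chr11:106256154-106263120) measured 206, 198, 183, 189 and 198 CPM in control and 182, 173, 155, 165 and 176 CPM in ADQ. Every ADQ library lay below every control, though ADQ 1 at 182 and control 3 at 183 CPM nearly met. The log2 fold change was -0.19 with SE 0.08, unadjusted p 0.0236 and adjusted p 0.287 in edgeR. Psmc3 and Psmc1 followed with -0.19 (adjusted p 0.369) and -0.14 (adjusted p 0.472). Psmc3 overlaps Slc39a13, a zinc transporter gene at 75.4 CPM, on the opposite strand. Psmc6 was the exception in sign, averaging 48.4 ± 3.83 CPM (SD, n = 5) in control against 52.8 ± 3.85 CPM in ADQ, a log2 fold change of 0.12 with adjusted p 0.514 in edgeR.

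In the lid and base, 12 of 14 fold changes lay below 0, between -0.18 and -0.01, and 0 of 14 had an unadjusted p under 0.05. The members with the smallest p were Psmd13, a lid subunit (log2 fold change -0.18, adjusted p 0.391), Psmd10, the assembly chaperone also known as gankyrin (-0.18, adjusted p 0.391), and Psmd11, a lid subunit that contacts the core (-0.15, adjusted p 0.404). Psmd13 shares 342 bases with Sirt3 on the opposite strand. Psmd14, the enzyme that removes ubiquitin chains from substrates, measured 77.4 ± 4.86 CPM (SD, n = 5) in control against 76.9 ± 3.65 CPM in ADQ, with a 95% interval of -0.17 to 0.15 for its log2 fold change. Psmd4, a ubiquitin receptor, had a log2 fold change of -0.15, and Psmd2, a large base subunit, one of 0.03.

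The constitutive catalytic subunits were next set against the inducible subunits that take their places, as a ratio of counts within each library, which is free of library scaling. The ratio of Psmb5 to Psmb8 was 2.48, 2.10, 1.79, 2.12 and 1.09 in control 1 to 5 and 0.759, 0.734, 0.622, 0.712 and 0.778 in ADQ 1 to 5. Control 5 was the lowest control, and all 5 ADQ libraries lay below it. The ratio was 2.57-fold lower in ADQ, a mean log2 difference of -1.36. The ratio of Psmb6 to Psmb9 ran from 4.23 (control 5) to 10.4 in control and from 1.97 to 2.68 in ADQ, 3.01-fold lower. The ratio of Psmb7 to Psmb10 ran from 0.984 (control 5) to 1.29 in control and from 0.543 to 0.573 in ADQ, 2.04-fold lower.

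For each of these 3 ratios the exact two-sided permutation p was 0.00794, the smallest that 5 against 5 libraries can give, and 0.0106 after Benjamini-Hochberg adjustment over the 4 ratios compared. Without control 5 the log2 differences were -1.55, -1.78 and -1.08, each with exact permutation p 0.0159. These ratios do not give relative protein or per-length amounts, since gene lengths differ. Most of each difference lay in the inducible partner. Psmb8 averaged 63.7 ± 21.5 CPM in control and 128 ± 19.4 in ADQ, Psmb9 43.7 ± 18 and 105 ± 10.5, and Psmb10 72.7 ± 13.3 and 125 ± 16.2 (SD, n = 5 each). Their log2 fold changes were 1.00, 1.27 and 0.78, with adjusted p 0.0277, 0.0217 and 0.01 in edgeR. Without control 5 they were 1.24, 1.55 and 0.89, with adjusted p 6e-05, 1.47e-05 and 0.000688. Control 5 was singled out partly for its interferon-induced markers. It was also the highest control for Psmb8, Psmb9 and Psmb10 and the lowest for the 3 ratios. Leaving it out was thus bound to widen these differences, and the smaller adjusted p-values add no support. The call of Psmb10 held without any 1 library, while that of Psmb8 was lost without any 1 library other than control 5 (adjusted p 0.0511 to 0.0889), and that of Psmb9 was lost without any 1 library other than control 2, control 5 and ADQ 5 (adjusted p 0.0544 to 0.0712) or without the filter on low counts (0.0653).

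The fourth ratio compared the cytosolic activator with the nuclear activator. The log2 ratio of Psme1 to Psme3 was 0.97, 0.40, 0.28, 0.80 and 1.18 in control and 1.31, 0.72, 0.57, 0.76 and 0.72 in ADQ. The groups overlapped, with a mean difference of 0.09 and an exact two-sided permutation p of 0.667.

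**Figure D4:**
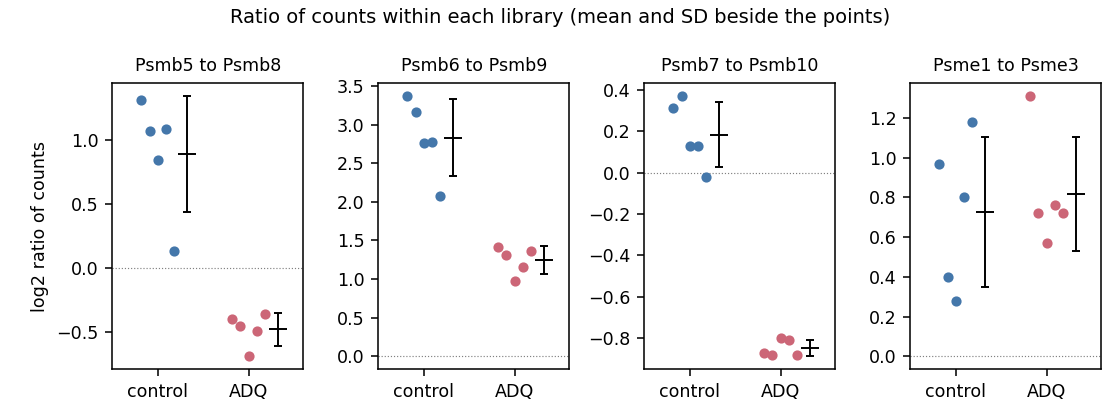
Log2 ratio of counts within each library for the 3 pairs of constitutive and inducible catalytic subunits and for Psme1 to Psme3, with mean and SD of 5 libraries per group. In the first 3 panels all ADQ libraries lie below all controls, and in the last the groups overlap.

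Genes that build, accompany or control the proteasome were read from lists. Of 5 core assembly factors, 0 were called and 4 lay below 0, among them the maturation protein Pomp (log2 fold change -0.09, adjusted p 0.73) and the assembly chaperones Psmg1 (-0.12, adjusted p 0.643) and Psmg3 (-0.16, adjusted p 0.577). Of 13 particle-associated proteins, 0 were called and 9 lay below 0. The lowest was Adrm1, a ubiquitin receptor of the base, at 138 ± 7.98 CPM (SD, n = 5) in control against 117 ± 18.8 CPM in ADQ, a log2 fold change of -0.25 with adjusted p 0.331 in edgeR. The shuttle factor Ubqln4 had a value of -0.19 (adjusted p 0.336).

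Of 8 regulators of proteasome genes, 0 were called and 5 lay above 0. Nfe2l1, the factor that raises transcription of proteasome subunit genes when proteasome activity falls, had a log2 fold change of 0.13 (adjusted p 0.607), its activating protease Ddi2 one of 0.16 (adjusted p 0.475) and Nfe2l2, the oxidative stress factor, one of 0.09 (adjusted p 0.595). Of 6 genes supplying or activating ubiquitin, 0 were called and 5 lay below 0. The polyubiquitin gene Ubb had a log2 fold change of -0.19 (adjusted p 0.53), and the ubiquitin fusion gene Rps27a had -0.17 (adjusted p 0.677). These list values stand beside the same background over all genes: a median of 0.01, 48.2% below 0 and 0.827% called in either direction.

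In the core, the ATPases and the lid and base, library 1 was highest and library 3 lowest in each group, while the order of the others differed. The mean log2 CPM of the 14 widely expressed core genes was 7.54, 7.27, 7.11, 7.34 and 7.42 in control 1 to 5 and 7.5, 7.17, 6.89, 7.13 and 7.24 in ADQ 1 to 5. The groups overlapped (7.34 ± 0.16 and 7.19 ± 0.22, SD, n = 5 each). ATPases averaged 7.3 ± 0.07 and 7.2 ± 0.1, and the lid and base 6.85 ± 0.06 and 6.75 ± 0.09. The core therefore varied more between libraries of a group than the regulatory particle did.

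The bias of the libraries by transcript length is given beside these levels. The slope was fitted over expressed genes of known length, as log2 CPM minus the mean of the gene over libraries against log2 merged exon length. It was -0.0715, -0.0133, 0.119, 0.012 and -0.0713 in control and -0.0969, 0.000466, 0.0685, -0.000931 and 0.0544 in ADQ. A higher slope means relatively more counts on long transcripts. In each group the library with the highest slope, control 3 and ADQ 3, had the lowest core level, while ADQ 5, with the second highest slope of its group, had the second highest core level. With the slope as a covariate, 0 members were called, 30 of 40 lay below 0, and the adjusted p in edgeR was 0.244 for Psme1 (log2 fold change 0.17) and 0.0545 for Psme2 (0.36).

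**Figure D5:**
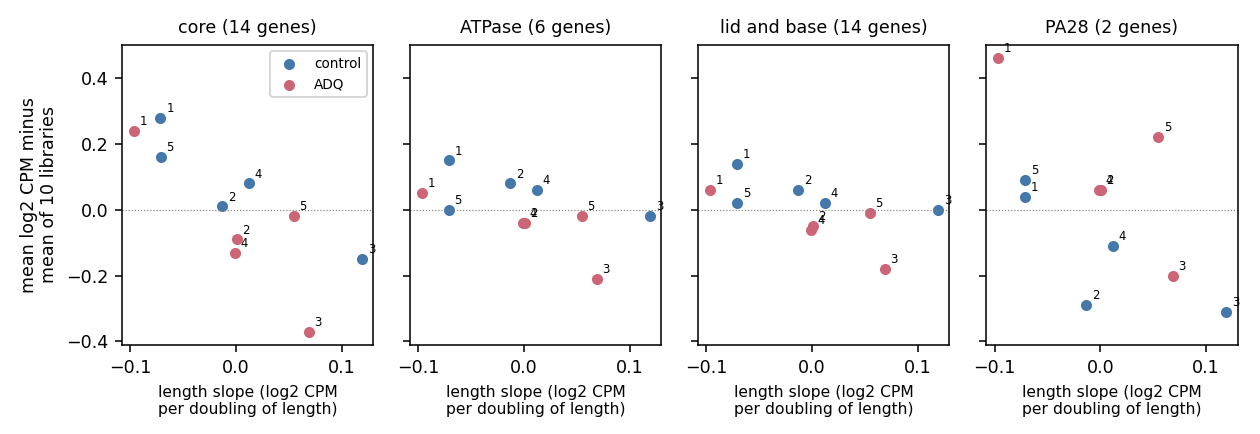
Mean log2 CPM of each subcomplex in each library, minus its mean over the 10 libraries, against the length slope of that library (log2 CPM per doubling of merged exon length). Core values are 0.28 in control 1 and 0.24 in ADQ 1 and drop to -0.37 in ADQ 3. PA28 values run from -0.31 to 0.09 in control and from -0.20 to 0.46 in ADQ. ADQ 3, at -0.20, lies between control 4 (-0.11) and control 3 (-0.31) in both slope and PA28 value.

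Markers of immune cells are given beside the PA28 values, and whether the markers and PA28 vary together across libraries was not tested. The 8 macrophage and microglia markers summed to 1636 to 2135 CPM in control and 1703 to 2763 CPM in ADQ, with 2 of 8 called higher and none at 0. T and NK cell markers summed to 24.8 to 87.9 and 84.8 to 127 CPM, with 0 of 8 called. All 8 lay above 0, with a median log2 fold change of 1.59. In edgeR 8 of 8 had an unadjusted p under 0.05, against 13.8% of all genes. The part of these T and NK cell markers in the results was not tested. Interferon-induced genes summed to 1871 to 3109 and 3427 to 4647 CPM, with 7 of 8 called higher. Of all genes tested, 0.74% were called higher and 0.087% lower, and these marker lists were chosen with earlier results of these data known. A further fit used the mean log2 CPM of the 8 macrophage and microglia markers, not their sum, as a covariate. All 8 had log2 fold changes above 0 (median 0.30). The covariate thus overlaps with the group term, and the fit cannot separate them. With this covariate in edgeR, the log2 fold changes of Psme1 and Psme2 turned to -0.25 (adjusted p 0.292) and -0.08 (adjusted p 0.79). The same fit called 12 of 40 members lower and 0 higher, against 7.27% of all genes lower and 5.53% higher, and those 12 were Psmb1, Psmb3, Psmb4, Psmb5, Psmb6, Psmb7, Psma2, Psma3, Psma6, Psma7, Psmd6 and Psmd9. That fit called none of Psmb8, Psmb9 and Psmb10 (adjusted p 0.199, 0.123 and 0.112).

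Markers of tissue carried into the dissection varied as well. Rod photoreceptor markers summed to 331 to 1849 CPM in control and 333 to 3681 CPM in ADQ, and skeletal muscle markers to 1201 to 2896 and 366 to 1931 CPM. In either list 0 of 8 were called, against 0.827% of all genes. Keratins of corneal and conjunctival epithelium summed to 171, 2.21, 2069, 64.5 and 540 CPM in control 1 to 5 and to 0.65 to 1.74 CPM in ADQ. Control 2 was thus close to the ADQ libraries. Of the 6 keratins, 4 passed the filter and 0 were called (adjusted p 0.0846 to 0.115 in edgeR). Krt5, Krt12 and Krt14 were at 0 in some libraries. With the rod marker level as a covariate, 0 members were called. The part of the muscle and epithelial markers in the proteasome values was not tested.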

How the data were processed

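RNA of 5 control samples and 5 ADQ samples was measured. TRIzol collection, NucleoSpin columns and SMARTer cDNA amplification are given per the labels' protocols. GRCm38, bcl2fastq, DRAGEN, edgeR and limma are listed per the submitters' processing notes. The strand setting of the counting is not given in the sources used here. Unnormalized counts, whole numbers by Ensembl gene, were deposited for 55774 entries, of which 287 repeats were dropped. A second table from the authors holds log2 CPM, log2 fold changes and p-values, per the file headers; its log2 CPM values match a recomputation from counts plus 0.5 up to a shift per library. The score columns the authors deposited there, a moderated statistic, log odds and a signed fold change per the file headers, were not used.

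Counts were tested in R 4.3.3 with edgeR 4.0.16 and limma 3.58.1. After filterByExpr (at least 10 counts, 15 in total) 20684 genes remained. Libraries were scaled by TMM and the groups compared in a robust quasi-likelihood fit, with Benjamini-Hochberg adjustment and a threshold of 0.05. CPM values are TMM-scaled. Set means of log2 CPM use a prior count of 2 and leave out Psma8 and Psmb11. Within-library ratios had 0.5 added to each count and were compared by exact permutation over 252 assignments. Positions and lengths come from GENCODE M21 on GRCm38, promoter windows from RefSeq. The principal transcript of a gene was the longest one tagged as principal there. The fit was tested on simulated counts with fold changes larger than that of any member here, so that test does not cover changes of their size. No 2 libraries were duplicates (smallest chi-square per degree of freedom 33.9). Intervals cover the spread between these libraries.

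Members and lists were chosen with earlier results of these data known. Named genes were Psme1 to Psme4, the 3 smallest p in core, ATPases, and lid and base, the highest and lowest level per length, Psmb8 to Psmb10, and up to 3 per pathway list, of which 2 are not reported here; other genes were named after their values were seen. Paaf1 was not analysed here. Alternatives were 3 other scalings, 2 filters, DESeq2 1.42.0, voom with quality weights, a replicate block, 3 covariates and each library left out. The covariates, each in its own fit, were the length slope and the mean log2 CPM of the macrophage markers or of the rod markers. Summing Psme2 with Psme2b, the principal-transcript length and the core median without Psma8 and Psmb11 were chosen after seeing the data.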

Additional observations from a re-analysis of the deposited data

Results flagged for a closer look

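In 7 of 114 groups of 5 libraries examined, 1 library lay far from the others, and chance gives about 5 in 100. Psma1 measured 147 CPM in control 1 against 128 to 133 in the other controls. Psma4 measured 116 CPM in control 1 against 94.3 to 98.8. Psmd3 measured 185 CPM in control 1 against 174 to 178. Control 1 also had the highest core mean among controls. Psmb11 measured 0.706 CPM in ADQ 3 against 0.155 to 0.308 in the other ADQ libraries. Psmb8 measured 102 CPM in control 5 against 51.4 to 57.7 in the other controls. The mean log2 CPM of Psme3 and Psme4 was 5.79 in ADQ 2 against 5.62 to 5.65. The log2 ratio of Psme1 to Psme3 was 1.31 in ADQ 1 against 0.57 to 0.76.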

How the results depend on the processing

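The count of called members was 0 in each direction under the other scalings, both other filters, DESeq2, voom, the length and rod covariates and each library left out. Exceptions were the macrophage covariate, with 12 lower, and the replicate block, with 1 higher (Psme2, log2 fold change 0.33, adjusted p 0.0458) and 1 lower (Psmb5, -0.32, adjusted p 0.0389), beside 1.9% of all genes higher and 1.46% lower. Over expressed genes of known length, deviations of same-numbered libraries correlated at 0.0997, 0.042, 0.263, 0.00647 and -0.125, over 0.1 only for number 3. Only control 3 correlated best with its own number, so the numbers were not taken to pair the samples. In the core, ATPases and lid and base the libraries numbered 1 and 3 were extreme in both groups. Under the block the ratios of Psmb5 to Psmb8, Psmb6 to Psmb9 and Psmb7 to Psmb10 kept log2 differences of -1.36, -1.59 and -1.03 with p 0.0625 in an exact sign-flip test, the smallest that 5 pairs allow. The macrophage covariate gave medians of -0.49 for the core, -0.31 for the ATPases, -0.28 for the lid and base and -0.16 for PA28, and turned Psme1 to -0.25 and Psme2 to -0.078; the cause was not tested. Library size alone gave -0.03 for the core, -0.07 for the ATPases and -0.03 for the lid and base, and raised the count of all genes called higher from 153 to 215. Psme2b lost its call under the block (adjusted p 0.0574).

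Leaving out 1 library at a time gave -0.20 to -0.07 for the core median, -0.19 to -0.10 for the ATPases, -0.16 to -0.07 for the lid and base and 0.15 to 0.32 for PA28, 0.06 to 0.21 for Psme1 and 0.24 to 0.42 for Psme2. The log2 ratios ran from -1.55 to -1.26, -1.78 to -1.45 and -1.08 to -0.98, and that of Psme1 to Psme3 from -0.032 to 0.20, below 0 without control 3 (-0.021) or ADQ 1 (-0.032). Fold changes near 0 changed sign: Psme3 ran from -0.0052 to 0.099, Psme4 from -0.064 to 0.046 and Psmb11 from -0.24 to 0.801. Psme4 was also above 0 with library size alone (0.076), the length covariate (0.002) and the rod covariate (0.062), and Psmd8 was with library size alone (0.0021). All genes called higher and lower numbered 153 and 18 in the reported fit, 506 and 267 in DESeq2, 511 and 153 in voom, and 69 to 316 and 5 to 41 with 1 library left out.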

Other observations

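Other near copies of members, looked at after their values were seen, held few counts. Psma5-ps had 87 to 280 counts per library, or 3.78 ± 1.25% of the sum with Psma5 in control and 5 ± 1.33% in ADQ (SD, n = 5 each). Psmb6-ps2 had 57 to 170 counts, 0.697 ± 0.242% and 1.2 ± 0.297% of the sum with Psmb6. Psmb5-ps had 2 to 14 counts and Psmb7-ps2 0 to 4.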
